A study of Mus musculus with 12 samples.

Results

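The genes of the blood vessel wall were followed in hippocampal slices after chemical long-term potentiation (LTP). The set was a fixed list of 33 gene symbols, of which 24 mark endothelial cells and 9 mark mural cells, out of 41091 genes in the count tables, and every symbol was found in both tables. The list was drawn up with earlier results of these data known, so shares of its members set beside all genes are descriptions. Endothelial cells line the vessel, and in brain they form the blood-brain barrier with junction proteins that close the gaps between cells and with transporters that control what crosses. Mural cells wrap that lining. Smooth muscle cells surround arteries and arterioles and contract through actin and smooth muscle myosin, and pericytes sit on capillaries and are held there by platelet-derived growth factor signalling.

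The slices came from male wild type C57BL/6 mice aged 2-3 months, with the dentate gyrus removed, so no genetic change separated the groups. After 2 hr of recovery, LTP slices were perfused with 50 uM forskolin for 5 min, then with forskolin plus 30 mM KCl and 10 mM calcium up to 10 min in all, and control slices with 0.2% DMSO, the vehicle. Tissue was frozen at 1 hr or at 3 hr, which with treatment made 4 groups of 3 libraries, and each animal gave both an LTP and a control library at its time point. No animal was assumed to appear at both times, so time and animal cannot be told apart, and the slices hold every cell type of the tissue with no blood flow through the vessels.

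Libraries held between 37118382 and 50815001 counts, at which 3 counts correspond to 0.0584 to 0.0792 CPM, the count relative to the library's total. The study set 1 hr control replicate 2 aside as an outlier of its clustering, and the tests below leave it out, while its levels are printed. Levels are CPM scaled over all 12 libraries (trimmed mean of M values, TMM). Tests are edgeR quasi-likelihood F tests with Benjamini-Hochberg adjustment over all genes tested, and a gene was called at an adjusted p under 0.1 with a change over 1.2-fold. In bulk RNA, fewer cells of a type and less RNA per cell cannot be told apart.

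The markers showed both vessel layers in every library, at very unequal levels. Per kilobase of exon, the mean level over the 12 libraries was 22.8 CPM for Rgs5, a G protein signalling regulator of pericytes, and 16.3 CPM for Vtn, the matrix protein vitronectin that pericytes make. Among endothelial genes the highest mean levels per kilobase were 10.6 CPM for Cldn5, the tight junction protein claudin-5, and 6.26 CPM for Ly6c1, a surface antigen. The contractile genes ranged on that scale from 6.68 CPM for Myl9, a myosin regulatory light chain, down to 0.0685 CPM for Cnn1, calponin. Gimap4, a GTPase of lymphocytes and endothelium, had between 0 and 8 counts in each library and was too low to enter the tests. Cnn1, with 2 to 15 counts, was tested only between time points, so 31 members were tested for LTP and 32 between time points. Rgs5 alone made up 56.9% to 63.5% of the summed mural level, which is therefore mostly a measure of that gene.

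**Figure D1:**
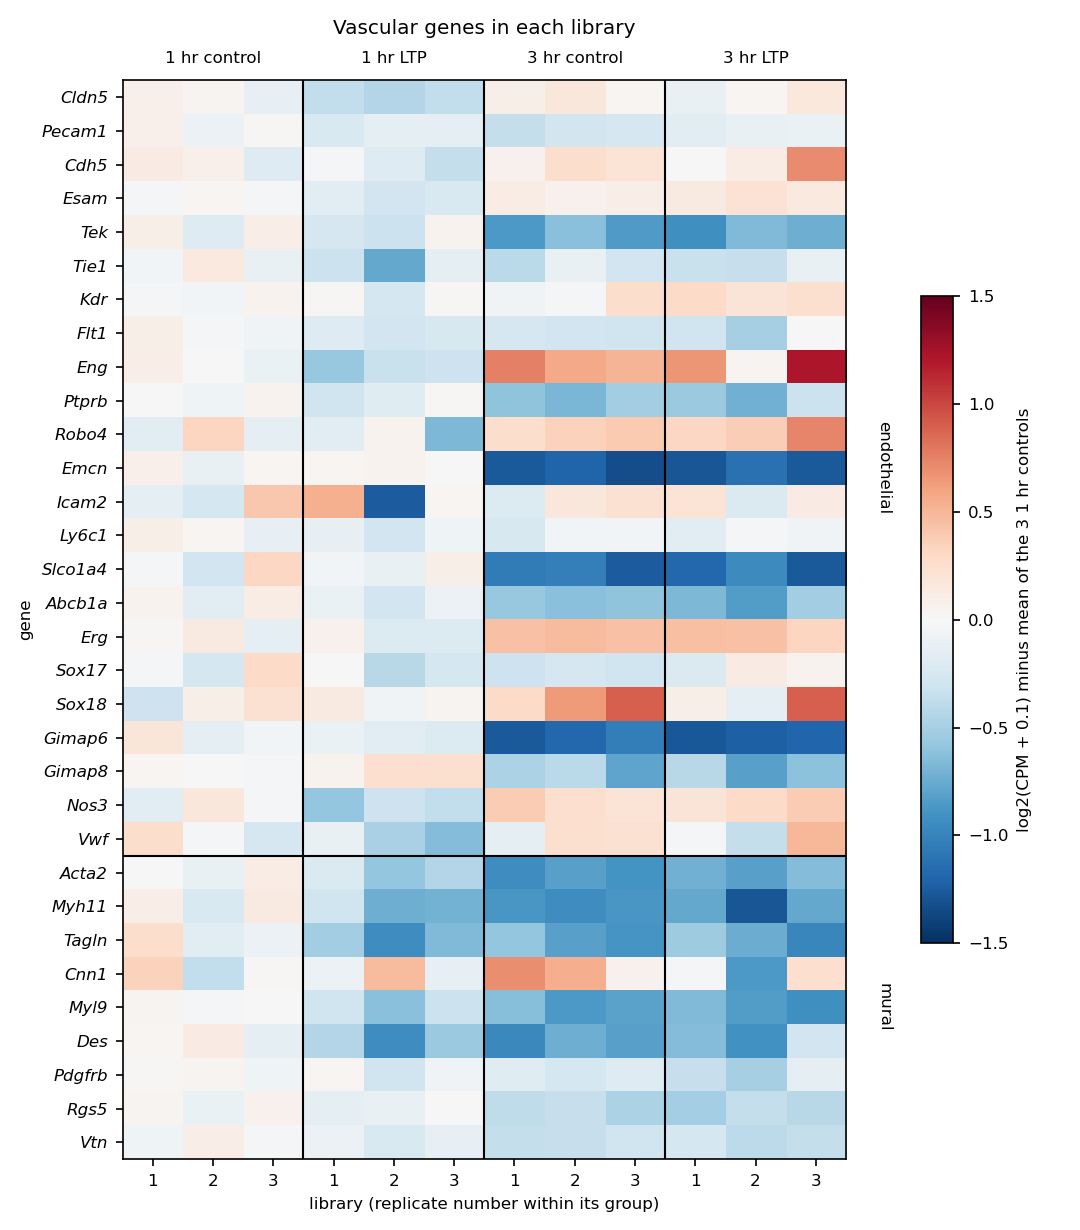
Level of each vascular gene (rows) in each of the 12 libraries (columns, by group and replicate), as log2(CPM + 0.1) minus the mean of the 1 hr control libraries; red is higher and blue lower, and Gimap4 is left out for its 0 to 8 counts. The contractile genes from Acta2 to Des, apart from Cnn1, are blue in the 1 hr LTP column block and in both 3 hr blocks, and Emcn, Slco1a4 and Gimap6 are blue in the 6 libraries of 3 hr.

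The first question was whether LTP changed the vascular genes within a time point. At 1 hr, 1 of the 5 tested contractile genes of smooth muscle, Myh11, was called lower in LTP slices than in control slices, and the other 4 had log2 differences below 0 that did not pass the test. This call was lost with all 12 libraries. It was the only member called of 31, against 0.789% of all 17736 genes tested called in either direction, 0.778% called higher and 0.0113% called lower. At an unadjusted p under 0.05 there were 12 of 31 members, against 6.71% of all genes. Of the 31 members, 29 had a log2 difference below 0, against 50.3% of all genes, and the median over the members was -0.22, against a median near 0 over all genes tested. With a term for the animal (replicate block), Kdr, Icam2, Erg and Pdgfrb turned above 0 as well (0.008, 0.16, 0.008 and 0.02). All 3 LTP libraries lay below both fitted controls for 17 of the 31 members, against 12% of all genes, and above them for 1 (Gimap8), against 10.6%. Since the members were chosen with earlier results known, these shares are not a test of the set.

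Myh11 encodes the heavy chain of smooth muscle myosin and lies at chr16:14194535-14291372 on the minus strand of GRCm38/mm10. Its level was 10.85 and 11.1 CPM in 1 hr control replicates 1 and 3, 8.59 CPM in the control set aside, and 8.19, 6.04 and 6.14 CPM in the LTP libraries. Each LTP library was below all 3 controls. The log2 fold change was -0.68 ± 0.14 (SE), a level 0.624 of control, with an adjusted p of 0.0465 in edgeR. With all 12 libraries the edgeR value was -0.57 with an adjusted p of 0.143, and without 1 hr control replicate 1, 1 hr control replicate 3 or 1 hr LTP replicate 2 the adjusted p was 0.321, 0.402 and 0.132.

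The other 4 tested contractile genes lay on the same side without passing the test, and Cnn1, untested, had 9, 5 and 7 counts in 1 hr controls and 6, 10 and 6 counts in 1 hr LTP libraries. Acta2, smooth muscle actin, was at 6.74, 6.25 and 7.32 CPM in 1 hr controls and at 5.81, 4.48 and 4.94 CPM in 1 hr LTP libraries (log2 -0.46 ± 0.15, adjusted p = 0.414 in edgeR). Myl9 was at 10.98, 10.5 and 10.6 CPM in controls and at 8.65, 6.88 and 8.56 CPM after LTP (log2 -0.42 ± 0.13, adjusted p = 0.348 in edgeR). For both genes the 2 groups did not overlap. Des, the intermediate filament desmin, was at 1.99, 2.13 and 1.75 CPM in controls and at 1.41, 0.976 and 1.29 CPM after LTP (log2 -0.59 ± 0.26, adjusted p = 0.698 in edgeR). Tagln, the actin-binding protein transgelin, had the lowest log2 fold change of the set, -0.80 ± 0.20, with levels of 4.44, 3.27 and 3.48 CPM in controls and 2.55, 1.90 and 2.31 CPM after LTP. Its adjusted p was 0.138 in edgeR and 0.0995 in DESeq2, which called it. Of Tagln's exonic bases, 67.9% overlap other annotated genes (Gm48529 and Pcsk7), so its counts are uncertain. Over the 5 tested contractile genes, all 5 were below 0 with a median of -0.59, and within each of the 3 animals, the one with the set-aside control included, all 5 were lower in the LTP slices than in the control slices of that animal. The share of all genes lower within an animal was not computed.

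The pericyte genes were nearer to control at 1 hr. Rgs5 was at 123, 112 and 126 CPM in controls and at 109, 111 and 121 CPM after LTP (log2 -0.12 ± 0.07, adjusted p = 0.852 in edgeR). Vtn had a log2 difference of -0.08 ± 0.08, and Pdgfrb, the receptor for platelet-derived growth factor B, one of -0.07 ± 0.12. All 3 were below 0 and none was called, and with a term for the animal Pdgfrb stood at 0.02.

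No endothelial gene was called at 1 hr, although 21 of 23 were below 0, with a median log2 difference of -0.21. In lists of other vascular genes the split was more even, with 11 of 21 other endothelial genes below 0 (median -0.02), 8 of 14 other pericyte genes (median -0.01) and 4 of 11 other smooth muscle genes (median 0.13), and none of these was called lower. Cldn5 was at 16.5, 16.1 and 14.4 CPM in controls and at 12.1, 11.5 and 12.1 CPM after LTP, with every LTP library below every control (log2 -0.37 ± 0.11, adjusted p = 0.263 in edgeR). Flt1, the vascular endothelial growth factor (VEGF) receptor that acts largely as a sink for its ligand, was at 41.7, 38.5 and 37.8 CPM in controls and at 34.5, 32.2 and 33.3 CPM after LTP, again without overlap (log2 -0.24 ± 0.08, adjusted p = 0.445 in edgeR). Nos3, the endothelial nitric oxide synthase, was at 6.25, 7.91 and 6.94 CPM in controls and at 4.64, 5.62 and 5.38 CPM after LTP (log2 -0.33 ± 0.15, adjusted p = 0.723 in edgeR). Other annotated genes overlap 32.3% of Nos3's exonic bases, so that value is uncertain too. Eng, the transforming growth factor beta co-receptor endoglin, had a log2 difference of -0.40 ± 0.18, and Vwf, the clotting factor that endothelium stores and releases, one of -0.43 ± 0.195. At the other end, Emcn, the sialomucin endomucin of capillary and venous endothelium, differed by -0.015 ± 0.145, Erg, an ETS family transcription factor that maintains endothelial identity, by -0.03 ± 0.13, and Sox18 and Gimap8 were above 0 at 0.08 ± 0.37 and 0.22 ± 0.36.

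Summed over their members, the endothelial genes stood at 239 to 256 CPM in 1 hr controls and at 208 to 224 CPM in 1 hr LTP libraries. The mural genes stood at 197 to 210 CPM in controls and at 175 to 192 CPM after LTP. For both sums the LTP range lay below the control range. Animal by animal, 23, 28 and 28 of the 31 tested members were lower in the LTP library than in the control library of animals 1, 2 and 3. Each count sets 1 library against 1 library, the set-aside control in animal 2, and the share of all genes was not computed. Fibroblast markers, the other cells of the vessel sheath and meninges, stood at 24.8 to 42.0 CPM in 1 hr controls and 21.2 to 28.7 CPM after LTP; all 7 had log2 differences below 0 and none was called. Oligodendrocyte markers, by contrast, were all 6 above 0 (median 0.22) and none was called, with sums of 5870 to 7360 CPM in controls and 7120 to 8450 CPM after LTP. The part of either in the vascular values was not tested.

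By 3 hr no member was called between LTP and control slices. That was 0 of 31 in edgeR, with 1 member (Pecam1) at an unadjusted p under 0.05, against 6.6% of all 17508 genes tested called (5.07% higher and 1.53% lower) and 20.2% at an unadjusted p under 0.05, and DESeq2 and limma-voom also called 0. The log2 differences ran from -0.32 to 0.32 with a median of 0.02 and SEs of 0.06 to 0.32, and 13 of 31 were below 0, against 50.5% of all genes. The groups did not overlap for 3 members, Pecam1, Esam and Sox17, each above control, against 27% of all genes in either direction. Pecam1, the platelet endothelial adhesion molecule at cell contacts, was at 18.02, 19.1 and 19.3 CPM in 3 hr controls and at 20.6, 21.3 and 21.6 CPM in 3 hr LTP libraries, which did not overlap (log2 0.18 ± 0.07, adjusted p = 0.193 in edgeR). Myh11 was at 5.47, 5.25 and 5.47 CPM in controls and at 5.91, 4.09 and 5.88 CPM after LTP, with overlapping groups (log2 -0.02 ± 0.15). The endothelial sum was 201 to 207 CPM in controls and 197 to 232 CPM after LTP, and the mural sum 147 to 154 CPM and 147 to 151 CPM.

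**Figure D2:**
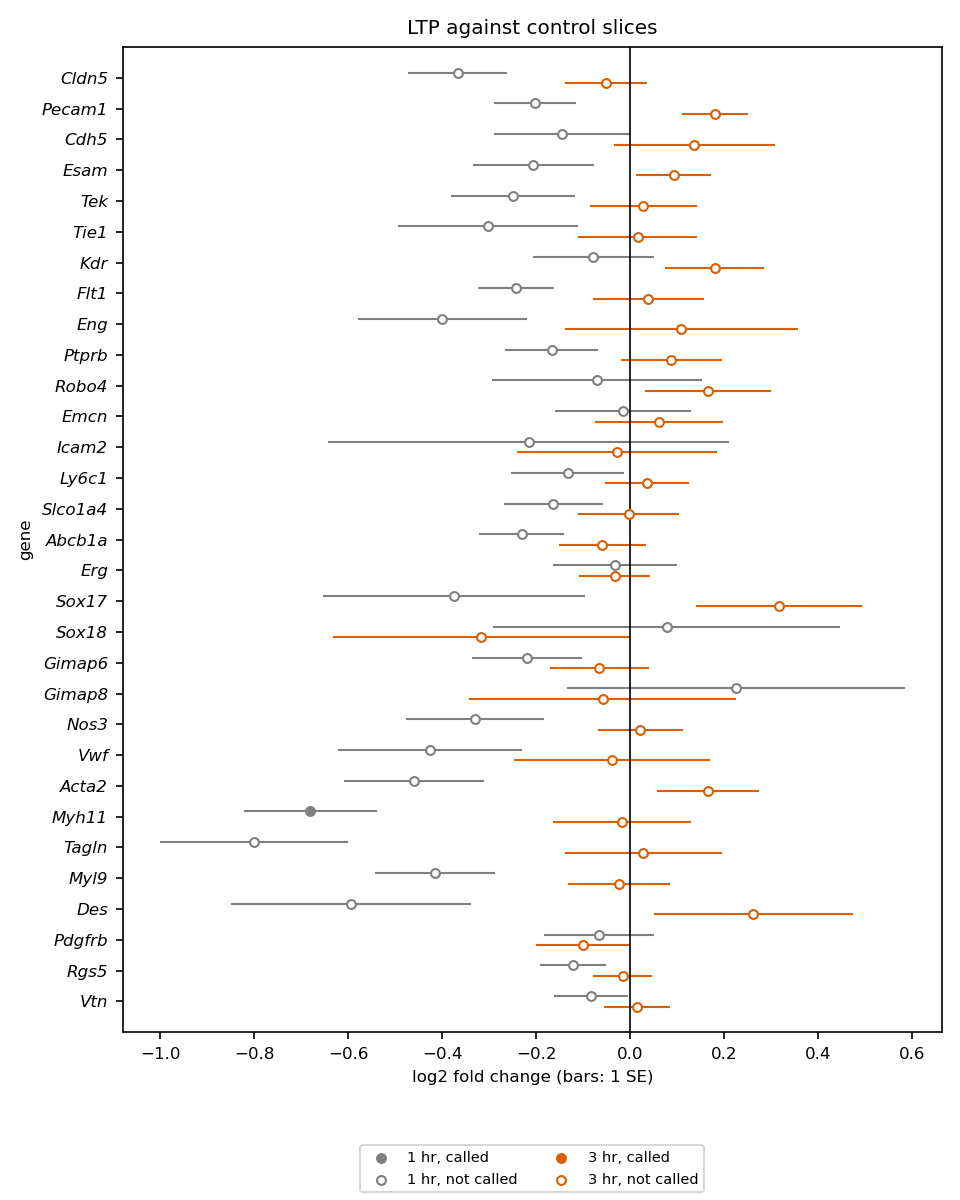
Log2 fold change of LTP against control slices for the 31 tested members at 1 hr (grey) and 3 hr (orange); bars are 1 SE from edgeR, filled points are called at an adjusted p under 0.1 and over 1.2-fold, and open points are not. The grey points lie left of 0 for 29 of 31 genes and Myh11 is the filled one; the 3 hr points lie on both sides and none is filled.

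Whether the effect of LTP differed between the time points was tested as an interaction in 1 model of 11 libraries. No member passed (0 of 32 in edgeR, against 0.0592% of all 18584 genes tested, 0.0269% higher and 0.0323% lower), and DESeq2 and limma-voom called 0 as well. At an unadjusted p under 0.05 there were 10 of the 32, 31.2%, against 6.59% of all genes. The difference, 3 hr minus 1 hr, was below 0 for 4 of 32 members, against 48.9% of all genes. It was 0.63 ± 0.18 for Acta2 (adjusted p = 0.424 in edgeR) and 0.67 ± 0.22 for Myh11 (adjusted p = 0.533). For Tagln and Des it was 0.84 ± 0.26 and 0.86 ± 0.32 (adjusted p = 0.511 and 0.637). The member with the smallest adjusted p was Pecam1, at 0.39 ± 0.11 with an adjusted p of 0.395. A call at 1 hr and none at 3 hr is thus not shown to be a difference between the time points for any member.

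Between 1 hr and 3 hr more of the vascular genes were called than between LTP and control slices. In control slices 20 of 32 members were called between 3 hr and 1 hr, 4 higher and 16 lower, against 32.8% of all 18584 genes tested (16.1% higher and 16.8% lower); 21 of 32 were at an unadjusted p under 0.05, against 42.1%. In LTP slices 19 of 32 were called, 8 higher and 11 lower, against 35.9% of all genes (18.6% higher and 17.3% lower), and 21 of 32 were at an unadjusted p under 0.05, against 46.2%. Log2 differences were below 0 for 21 of 32 members in controls and 16 of 32 in LTP slices, against 51.9% and 50% of all genes. The 3 hr libraries did not overlap the fitted 1 hr libraries for 19 members below and 6 above in controls, against 60.7% of all genes in either direction, and for 12 below and 8 above in LTP slices, against 44.9%. The median log2 difference over the members was -0.32 in controls and -0.01 in LTP slices, against -0.02 and 0 over all genes. The control and LTP comparisons share no library, though the control and LTP libraries of a time point come from the same animals. The comparison of 3 hr with 1 hr in controls does share the 1 hr control libraries with the LTP comparison at 1 hr, and the comparison in LTP slices shares the 1 hr LTP libraries with it. The 4 members called higher in controls were all called higher in LTP slices, where they are 50% of the list; over all genes, 72.1% of those called higher in controls were also called higher in LTP slices, where they are 62.3% of the list. The 11 called lower in LTP slices were all called lower in controls, where they are 69% of the list; over all genes, 67.7% of those called lower in LTP slices were also called lower in controls, where they are 69.9%.

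Of the 32 tested members, the largest falls in both arms were in Emcn, Slco1a4 and Gimap6, which are expressed on or in endothelial cells, to levels 0.382 to 0.463 of those at 1 hr. Emcn, at chr3:137341067-137432185 on the plus strand, was at 5.06, 4.45 and 4.91 CPM in 1 hr controls, 4.88, 4.99 and 4.82 CPM in 1 hr LTP libraries, 1.95, 2.03 and 1.85 CPM in 3 hr controls and 1.91, 2.15 and 1.95 CPM in 3 hr LTP libraries. The 6 libraries of 3 hr lay far below the 6 of 1 hr, with no overlap. The log2 fold change was -1.39 ± 0.13 in controls (adjusted p = 2.82e-05 in edgeR) and -1.30 ± 0.12 in LTP slices (adjusted p = 1.12e-05).

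Slco1a4, an organic anion transporter of the blood-brain barrier at chr6:141805440-141856199 on the minus strand, was at 21.1, 17.4 and 26.4 CPM in 1 hr controls, 20.8, 19.7 and 22.7 CPM in 1 hr LTP libraries, 10.3, 10.4 and 8.92 CPM in 3 hr controls and 9.34, 10.99 and 8.84 CPM in 3 hr LTP libraries. Its fall was -1.30 ± 0.12 in controls (adjusted p = 3.07e-05 in edgeR) and -1.13 ± 0.11 in LTP slices (adjusted p = 2.14e-05). Gimap6, a GTPase of the same family as Gimap4 and Gimap8 at chr6:48701582-48708225 on the minus strand, was at 12.1, 9.71 and 10.4 CPM, then 9.96, 9.60 and 9.29 CPM, in the 1 hr control and LTP libraries, and at 4.41, 4.68 and 5.18 CPM, then 4.36, 4.53 and 4.64 CPM, in those of 3 hr. That was a log2 fold change of -1.27 ± 0.11 in controls (adjusted p = 1.9e-05 in edgeR) and -1.11 ± 0.10 in LTP slices (adjusted p = 1.14e-05). As for Emcn, the 1 hr and 3 hr libraries of both genes did not overlap in either arm. Gimap8, with 13 to 30 counts in each library, was called lower in both (-0.70 ± 0.30 and -0.98 ± 0.28), but in controls leaving out any 1 library ended the call (adjusted p from 0.104 to 0.271 in edgeR).

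Of the 7 endothelial receptors, 3 were called lower (Tek, Ptprb and Flt1) and 2 higher (Eng and Robo4) in controls, against 16.8% of all genes lower and 16.1% higher. In LTP slices 2 were called lower (Tek and Ptprb) and 3 higher (Eng, Robo4 and Kdr), against 17.3% and 18.6%. Both transporters of the set, Slco1a4 and Abcb1a, were called lower in both arms. Transporters outside the set were split. Abcg2 was called lower in both arms (-0.61 ± 0.11 and -0.52 ± 0.10), and Slc2a1 and Mfsd2a were called higher in LTP slices (0.37 ± 0.08 and 0.58 ± 0.08). Tek, the angiopoietin receptor that keeps vessels quiescent, was at 9.82, 8.07 and 9.90 CPM in 1 hr controls and at 5.02, 5.92 and 5.06 CPM in 3 hr controls, and went from 7.75, 7.38 and 9.55 CPM to 4.84, 5.80 and 5.51 CPM in LTP slices. The changes were -0.92 ± 0.13 (adjusted p = 0.000287 in edgeR) and -0.63 ± 0.12 (adjusted p = 0.00131). Ptprb, the phosphatase that acts on Tek, fell by 0.67 ± 0.12 and 0.40 ± 0.11 on the log2 scale in controls and LTP slices. Abcb1a, the drug efflux pump P-glycoprotein, fell by 0.72 ± 0.10 and 0.54 ± 0.09, from 21.8 to 26.3 CPM in 1 hr controls to 15.8 to 16.4 CPM in 3 hr controls; 10.1% of its exonic bases overlap other genes. For Tek, Ptprb and Abcb1a the 3 hr libraries lay below the 1 hr libraries of the same arm without overlap. Tie1, the orphan partner of Tek, was not called in either arm (-0.22 ± 0.17 and 0.10 ± 0.16).

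Upstream sequence is shown for the 3 genes that fell most, for Erg, which rose, and for Myl9 among the contractile genes, so that the bases before their starts can be compared. RefSeq promoter sequence (GRCm38.p6) was matched for 21 of the 33 members. The 200 bases printed are 5′ to 3′ on the gene's strand and end at the base before the start site, or before the GENCODE gene start where that lies further upstream (11 bases for Emcn and 44 for Myl9). Capitals in the endothelial genes mark CGGAAG or AGGAAG, core letters recognised by ETS factors such as Erg, on either strand; the pair differ in their first base. Capitals in Myl9 mark the CArG box, the site of serum response factor, allowing 1 of its inner bases to be C or G.
Emcn, chr3:137340867-137341066, strand +: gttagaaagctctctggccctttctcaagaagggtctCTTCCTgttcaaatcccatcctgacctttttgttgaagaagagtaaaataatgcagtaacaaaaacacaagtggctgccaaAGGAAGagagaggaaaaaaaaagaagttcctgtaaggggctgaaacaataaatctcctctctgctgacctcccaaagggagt
Slco1a4, chr6:141856221-141856420, strand -: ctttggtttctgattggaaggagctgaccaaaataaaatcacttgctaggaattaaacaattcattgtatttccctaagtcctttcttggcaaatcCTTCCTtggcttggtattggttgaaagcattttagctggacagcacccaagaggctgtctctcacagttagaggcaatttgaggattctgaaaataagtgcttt
Gimap6, chr6:48708245-48708444, strand -: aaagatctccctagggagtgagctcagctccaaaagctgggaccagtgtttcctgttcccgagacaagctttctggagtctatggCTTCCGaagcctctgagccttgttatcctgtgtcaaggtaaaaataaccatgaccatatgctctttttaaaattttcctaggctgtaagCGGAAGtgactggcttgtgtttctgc
Erg, chr16:95586594-95586793, strand -: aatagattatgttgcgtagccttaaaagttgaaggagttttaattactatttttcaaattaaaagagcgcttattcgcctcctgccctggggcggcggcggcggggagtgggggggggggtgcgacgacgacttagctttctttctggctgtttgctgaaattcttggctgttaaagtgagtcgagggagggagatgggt
Myl9, chr2:156775220-156775419, strand +: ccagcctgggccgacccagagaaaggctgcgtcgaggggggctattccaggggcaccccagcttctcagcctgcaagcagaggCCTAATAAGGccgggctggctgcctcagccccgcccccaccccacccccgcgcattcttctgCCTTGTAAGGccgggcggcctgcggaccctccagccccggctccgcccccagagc
Searched over the 250 bases before the start, the ETS letters were present in 9 of 15 endothelial members with sequence, in 0 of 6 mural members and in 39.2% of all 32851 promoters. Emcn had them 174 and 93 bases before its start, Slco1a4 at 104, and Gimap6 at 115 and 26, while Erg had none in its window. The letters did not follow the direction of change. Eng and Robo4, called higher in both arms, had them, and Tek and Gimap8, called lower in both arms, had none. The CArG box with 1 such change allowed was present in 2 of 6 mural members (Acta2 and Myl9), in 3 of 15 endothelial members and in 8.59% of all promoters; the exact box was in Myl9 alone of the 21, and in 1.47% of all promoters. A match of letters is a description and not a measured binding site, and no binding was measured here.

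The 4 members called higher in both arms were Erg, Eng, Robo4 and Nos3. Erg, at chr16:95359169-95586593 on the minus strand, was at 9.07, 9.87 and 8.10 CPM in 1 hr controls and at 12.2, 12.5 and 12.2 CPM in 3 hr controls, and went from 9.40, 7.78 and 7.81 CPM to 12.3, 12.2 and 11.2 CPM in LTP slices. No 3 hr library overlapped a 1 hr library. The log2 fold change was 0.49 ± 0.11 in controls (adjusted p = 0.00355 in edgeR) and 0.50 ± 0.09 in LTP slices (adjusted p = 0.00124). Sox17 and Sox18, the other endothelial transcription factors of the set, were not called in either arm; in controls their log2 differences were -0.49 ± 0.22 and 0.70 ± 0.35. Another annotated gene overlaps 16.9% of Sox17's exonic bases.

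Eng was at 4.11, 3.85 and 3.58 CPM in 1 hr controls and at 6.55, 5.73 and 5.51 CPM in 3 hr controls, which did not overlap (log2 0.60 ± 0.25, adjusted p = 0.0883 in edgeR). In LTP slices it went from 2.55, 3.03 and 3.08 CPM to 6.11, 3.96 and 9.05 CPM (log2 1.12 ± 0.23, adjusted p = 0.00222), the largest rise of the 32 tested members. Robo4, a receptor that stabilises vessels, rose by 0.48 ± 0.20 in controls and by 0.72 ± 0.17 in LTP slices. Nos3 rose by 0.34 ± 0.12 and 0.70 ± 0.11, from 4.64, 5.62 and 5.38 CPM to 8.02, 8.60 and 9.16 CPM in LTP slices. The control calls were weak: leaving out any 1 of the 5 control libraries ended that of Eng (adjusted p from 0.111 to 0.299 in edgeR), leaving out any but 3 hr control replicate 1 ended that of Robo4 (0.127 to 0.202), as did using all 12 libraries (log2 0.32, adjusted p = 0.225), and leaving out 1 hr control replicate 1 ended that of Nos3 (0.16). Eng was not called in controls by limma-voom either (adjusted p = 0.108). In LTP slices the 3 calls held in every such fit.

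Of the 4 endothelial junction genes, 3 were called higher in LTP slices, against 18.6% of all genes, and 0 in controls, against 16.1%; the fourth, Pecam1, stood at 0.02 in LTP slices. Cldn5 rose by 0.41 ± 0.09 on the log2 scale in LTP slices (adjusted p = 0.00331 in edgeR), from 12.1, 11.5 and 12.1 CPM to 14.5, 16.0 and 17.5 CPM, while 3 hr controls at 16.6, 17.5 and 16.0 CPM overlapped the 1 hr controls. With GC and length offsets the rise of Cldn5 in LTP slices was 0.17 and was not called. Esam, an adhesion molecule of tight junctions, rose by 0.38 ± 0.08 (from 6.61, 6.12 and 6.35 CPM to 8.21, 8.71 and 8.29 CPM), and Cdh5, vascular endothelial cadherin, by 0.48 ± 0.17. Kdr, the main signalling VEGF receptor, rose by 0.29 ± 0.11. Without 1 hr LTP replicate 3 or 3 hr LTP replicate 3 the adjusted p of Cdh5 was 0.102 and 0.185, and without 1 hr LTP replicate 2 or 3 hr LTP replicate 1 that of Kdr was 0.134 and 0.124. In controls these 4 genes had log2 differences between 0.03 and 0.19 and none was called. Pecam1 and Flt1 did the reverse: they fell by 0.37 ± 0.08 and 0.32 ± 0.12 in controls and stood at 0.02 ± 0.07 and -0.04 ± 0.10 in LTP slices. The call of Flt1 ended without 1 hr control replicate 1 or 3 or 3 hr control replicate 2 or 3 (adjusted p from 0.115 to 0.334). The tests of the difference between arms are the interaction tests above, in which no member passed. Icam2, Ly6c1 and Vwf were called in neither arm by edgeR. Vwf stood at 0.46 ± 0.22 in LTP slices (adjusted p = 0.113) and was called by DESeq2 (adjusted p = 0.0748), with all 12 libraries (0.0875), and without 1 hr LTP replicate 1 or 3 hr LTP replicate 2 (0.0539 and 0.0202).

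**Figure D3:**
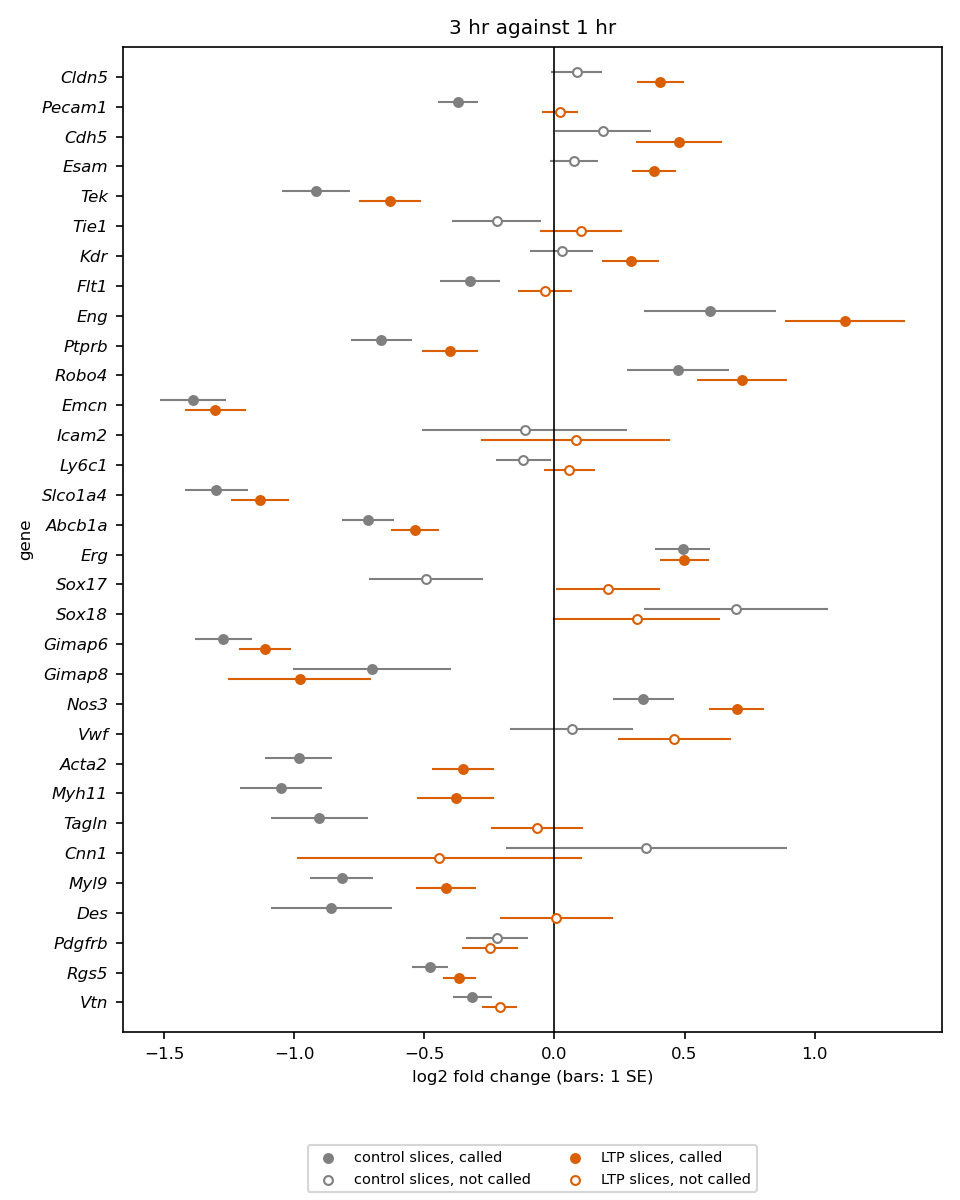
Log2 fold change of 3 hr against 1 hr for the 32 tested members in control slices (grey) and LTP slices (orange); bars are 1 SE from edgeR, and filled points are called at an adjusted p under 0.1 and over 1.2-fold. Emcn, Slco1a4 and Gimap6 lie left of -1 in both arms, Erg, Eng, Robo4 and Nos3 lie right of 0, and the contractile genes Acta2 to Des, Cnn1 aside, lie further left in controls than in LTP slices.

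Mural genes were called in 1 direction only. In controls 7 of 9 were called lower and 0 higher, against 16.8% of all genes called lower, and in LTP slices 4 of 9 were called lower and 0 higher, against 17.3%. Myh11 fell from 8.59 to 11.1 CPM over the 1 hr controls to 5.25 to 5.47 CPM over the 3 hr controls (log2 -1.05 ± 0.16, adjusted p = 0.000409 in edgeR). In LTP slices the fall was -0.38 ± 0.15 (adjusted p = 0.0595), and without 1 hr LTP replicate 1 or 3 hr LTP replicate 2 the adjusted p was 0.338 and 0.203. Acta2, at chr19:34241090-34255590 on the minus strand, fell to 3.505, 3.81 and 3.58 CPM in 3 hr controls and 4.04, 3.80 and 4.28 CPM in 3 hr LTP libraries, by 0.98 ± 0.13 and 0.35 ± 0.12 on the log2 scale, the latter call being lost without 1 hr LTP replicate 1 (adjusted p = 0.203). Myl9 fell by 0.82 ± 0.12 and 0.42 ± 0.11. For these 3 genes the 3 hr libraries did not overlap the 1 hr libraries of their arm.

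Tagln and Des were called lower in controls only (-0.90 ± 0.19 and -0.86 ± 0.23), and in LTP slices stood at -0.07 ± 0.18 and 0.01 ± 0.22. Without 1 hr control replicate 1 the adjusted p of Des in controls was 0.104. Cnn1, at 0.044 to 0.325 CPM over the 12 libraries, was called in neither. Rgs5 fell from 123, 112 and 126 CPM to 92.6, 94.8 and 86.2 CPM in controls (-0.48 ± 0.07, adjusted p = 0.000357 in edgeR), and from 109, 111 and 121 CPM to 84.5, 93.7 and 89.8 CPM in LTP slices (-0.37 ± 0.06, adjusted p = 0.000756). Vtn was called lower in controls (-0.32 ± 0.08; -0.26, under the fold limit, without 1 hr control replicate 3) and did not reach the fold limit in LTP slices (-0.21 ± 0.07, adjusted p = 0.0264), and Pdgfrb was called in neither (-0.22 ± 0.12 and -0.25 ± 0.11).

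**Figure D4:**
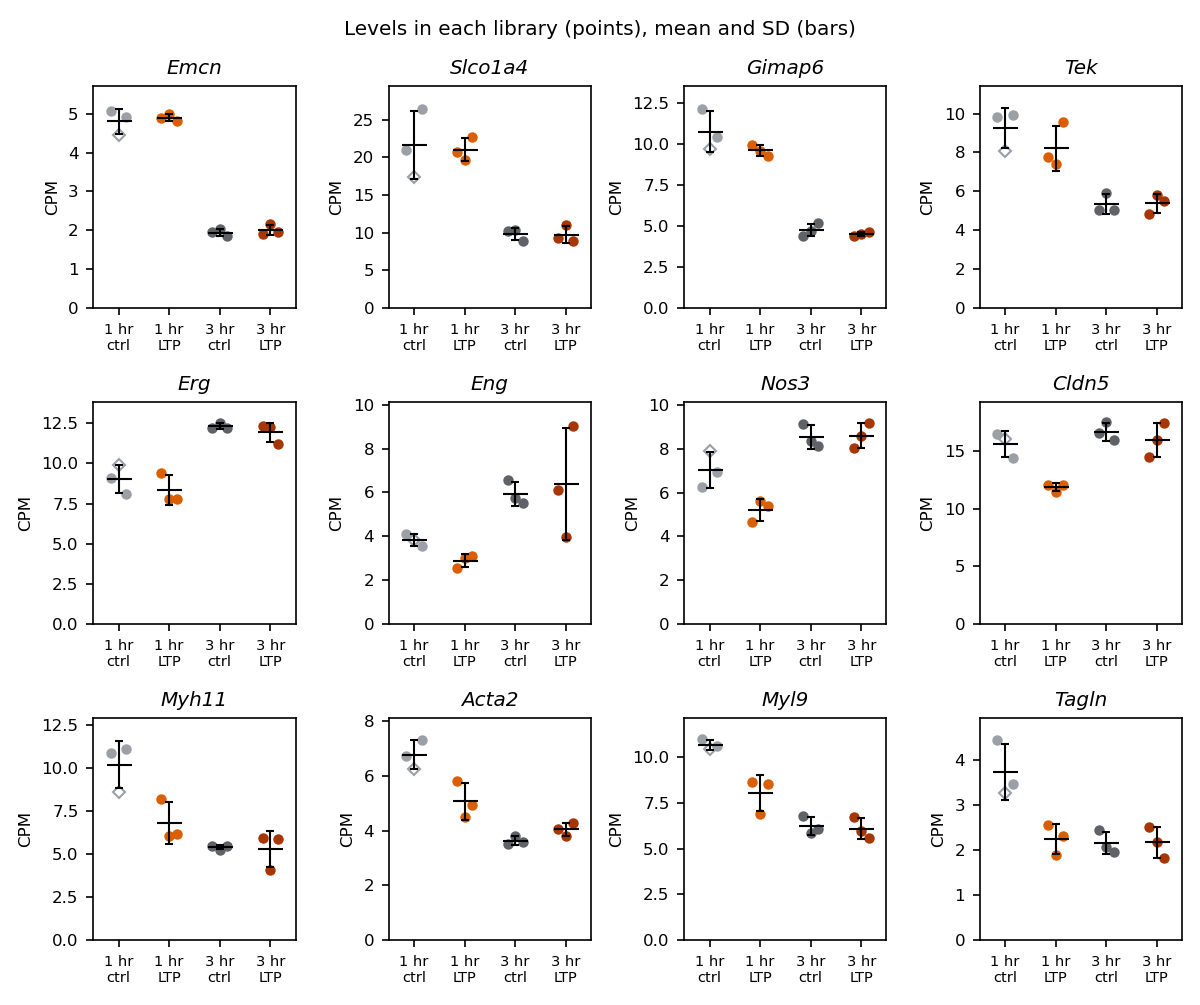
CPM of 12 members in each library by group, with replicates in order from left to right; the short black line is the mean of the 3 libraries with its SD, and the open diamond is 1 hr control replicate 2, which the tests leave out. Emcn, Slco1a4, Gimap6 and Tek drop and Erg rises in both 3 hr groups, and the 1 hr LTP points of Myh11, Acta2, Myl9 and Tagln lie below those of the 1 hr controls, a difference called for Myh11 alone and lost there with all 12 libraries.

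Base composition moved with these time comparisons. Across 18414 genes, which are not independent replicates, the log2 difference between 3 hr and 1 hr had a Spearman correlation with transcript GC content of 0.42 in controls and 0.40 in LTP slices, against -0.06 and -0.10 for LTP at 1 hr and 3 hr. Members called higher in controls had a median GC of 56.1% and those called lower 48.6%, and over all genes the medians were 55% and 44.9%. In a fit with GC and length offsets for each library, added after the data were seen, the controls had 1 member higher and 18 lower. There Eng, Robo4 and Nos3 lost their calls in controls (0.32, 0.28 and 0.01), Erg stayed higher (0.46), and Emcn (-1.20), Slco1a4 (-1.11), Gimap6 (-1.19), Tek (-0.86) and Myh11 (-1.19) stayed lower, while Tie1, Sox17 and Pdgfrb became calls and Gimap8 lost its own. In LTP slices that fit kept the rises of Eng (0.84), Robo4 (0.52), Nos3 (0.39), Esam (0.36) and Cdh5 (0.39) and lost those of Cldn5 (0.17) and Kdr (0.25), and the falls of Acta2 (-0.27) and Rgs5 (-0.22), while Ly6c1 became a call higher (0.29) and Pdgfrb (-0.46) and Vtn (-0.28) became calls lower, which made 7 higher and 11 lower.

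Markers of other cell types also moved with time. Over all genes, 16.1% were called higher and 16.8% lower in controls, and 18.6% and 17.3% in LTP slices. Of 6 microglia markers, 5 were called lower at 3 hr in each arm, with sums of 279 to 301 CPM in 1 hr controls and 202 to 232 CPM in 3 hr controls. Of 6 oligodendrocyte markers, 3 were called higher in each arm, with sums of 5870 to 7360 CPM at 1 hr and 7850 to 9500 CPM at 3 hr in controls. None of 6 astrocyte markers was called. Neuron markers had 2 of 6 lower in controls, above the share of all genes, and 1 of 6 lower in LTP slices, near that share. Erythroid markers, a trace of the blood left in the vessels, were summed at 53.3 to 79.0 CPM in 1 hr controls and 41.8 to 64.0 CPM in 3 hr controls, which overlapped; 0 of 4 were called in controls and 1 of 4, Hbb-bs, lower in LTP slices. The part of these shifts in the vascular values was not tested.

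Other genes of the vessel wall, taken from lists outside the 33, were also tested for LTP. Of 22 other endothelial genes, 2 of 21 tested were called higher and 0 lower at 1 hr, against 0.778% and 0.0113% of all genes, and 4 of 22 higher and 0 lower at 3 hr, against 5.07% and 1.53%. Klf2, a transcription factor that endothelium switches on under blood flow, was at 3.00, 3.19 and 2.96 CPM in 1 hr controls and at 6.22, 5.46 and 6.80 CPM after LTP (log2 1.06 ± 0.16, adjusted p = 0.00395 in edgeR), and at 3 hr it was higher by 0.72 ± 0.15. Klf4, its close relative, was higher by 0.90 ± 0.10 at 1 hr and 1.44 ± 0.15 at 3 hr, from 13.9, 15.5 and 12.9 CPM to 35.0, 31.5 and 47.6 CPM at 3 hr. Both are also made by other cells of the tissue. Between time points 2 of the 22 were called higher and 6 lower in controls, and 8 higher and 5 lower in LTP slices, against 16.1% and 16.8%, and 18.6% and 17.3%, of all genes. Fli1, an ETS factor like Erg, fell by 1.02 ± 0.13 in controls and 0.70 ± 0.12 in LTP slices. Ets1, another ETS factor of the list, went the other way, rising by 0.44 ± 0.09 and 0.63 ± 0.08, and was called in both arms.

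Among the 4 genes of that list called higher at 3 hr were 2 transporters, while the transporters Abcg2 (-0.04 ± 0.11) and Slc38a5 (-0.33 ± 0.25) were not called. Slc2a1, the glucose transporter GLUT1, was at 55.9, 58.3 and 58.9 CPM in controls and 77.1, 69.8 and 85.0 CPM after LTP (log2 0.44 ± 0.08, adjusted p = 0.0242 in edgeR). Mfsd2a, a lipid transporter of the blood-brain barrier, was at 34.6, 32.3 and 31.1 CPM in controls and 47.2, 42.6 and 42.4 CPM after LTP (log2 0.44 ± 0.08, adjusted p = 0.0202 in edgeR). Neither gene's groups overlapped. Without 3 hr control replicate 2 both calls were lost (adjusted p = 0.124 for each), and for Slc2a1 and Klf2 leaving out 3 hr control replicate 1 or 2 or 3 hr LTP replicate 1 ended the 3 hr call (adjusted p from 0.111 to 0.171).

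Among 18 ligands that act on vessels, Ccn1, a matrix protein made soon after stimulation, was called higher with LTP at 1 hr (0.88 ± 0.12) and 3 hr (1.82 ± 0.10), and Wnt7b, a neuronal and glial ligand that maintains the barrier, lower at 3 hr (-0.31 ± 0.08, adjusted p = 0.0777 in edgeR), a call that ended when any 3 hr control or 3 hr LTP replicate 1 was left out (0.131 to 0.28). Of 6 genes of endothelial activation, none was called with LTP. Over all genes, 0.789% were called with LTP at 1 hr and 6.6% at 3 hr, so a list of 6 with no call is not unusual. Between time points 3 were called higher in each arm, against 16.1% and 18.6% of all genes: Sele and Selp, the selectins that capture leukocytes, rose by 1.87 ± 0.41 and 1.97 ± 0.37 in controls and by 1.79 ± 0.36 and 1.48 ± 0.31 in LTP slices, and Icam1, a leukocyte adhesion molecule, by 0.72 ± 0.10 and 0.55 ± 0.09. Sele was at 1.19, 1.82 and 0.924 CPM in 1 hr controls and at 2.16, 5.62 and 4.01 CPM in 3 hr controls.

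Of 14 other smooth muscle genes, 12 were tested between time points, and 1 was called higher and 6 lower in controls, against 16.1% and 16.8% of all genes, and 0 higher and 4 lower in LTP slices, against 18.6% and 17.3%; none of 11 tested was called for LTP at 1 hr. Pln, phospholamban, a regulator of the calcium store in muscle, had the lowest log2 difference in controls (-1.95 ± 0.37), an uncertain value, since its level was 0.136 to 0.878 CPM and 64.7% of its exonic bases overlap other genes (Cep85l and Gm47644). Of 14 other pericyte genes, 2 were higher and 6 lower in controls, against 16.1% and 16.8% of all genes. In LTP slices 4 were higher and 2 lower, against 18.6% and 17.3%. The proteoglycan gene Cspg4 and the adhesion gene Mcam rose in both arms (0.68 ± 0.15 and 0.64 ± 0.14 in controls), and Atp13a5 fell in both (-0.50 ± 0.10 in controls). In LTP slices with GC and length offsets Cspg4 turned to -0.04.

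**Figure D5:**
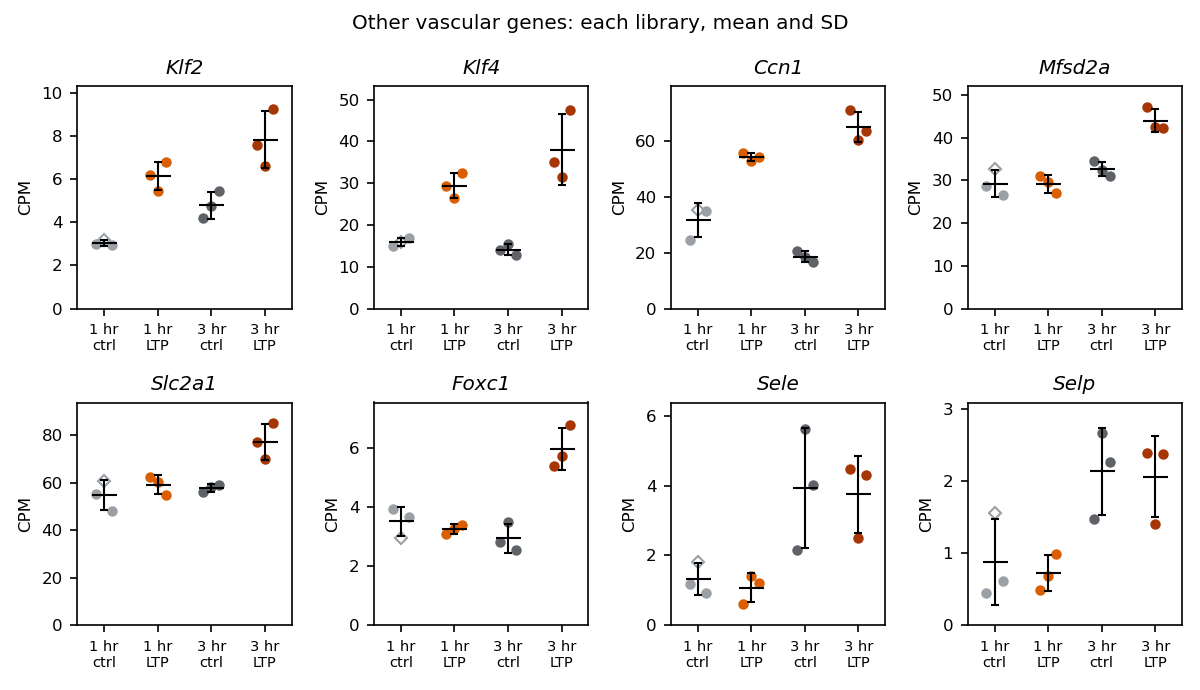
CPM of 8 vascular genes outside the 33 members in each library by group, with replicates in order from left to right; the short black line is the mean of the 3 libraries with its SD, and the open diamond is 1 hr control replicate 2, which the tests leave out. Klf2, Klf4 and Ccn1 are higher in LTP than control libraries at both times, Mfsd2a, Slc2a1 and Foxc1 at 3 hr, and Sele and Selp are higher at 3 hr in both arms.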

How the data were processed

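Total RNA of hippocampal mini-slices was sequenced in 12 libraries of 4 groups after ribosomal RNA depletion with a stranded kit. The authors aligned reads with STAR to GRCm38/mm10 and deposited raw counts per Ensembl gene, 1 table per time point; whether counting used strand and which annotation release was used are not given in the sources used here. The submitters' processing notes also name DESeq2. Of 41091 gene IDs, 40217 matched GENCODE M21, which gave symbols and positions. The 33 members and the other gene lists were chosen with earlier results of these data known.

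Counts were tested in R 4.3.3 with edgeR 4.0.16 (filterByExpr, TMM, quasi-likelihood F test), with Benjamini-Hochberg adjustment over all genes tested and calls at an adjusted p under 0.1 and a change over 1.2-fold (no fold limit for the interaction). The LTP comparisons used 5 libraries at 1 hr and 6 at 3 hr, and the time comparisons and the interaction used a model of 11 libraries, without 1 hr control replicate 2 as in the study. SE is the log2 fold change divided by the root of F. All members were named; of other genes, those called in a comparison, at most the 4 with the smallest p per list and direction. DESeq2 1.42.0, limma-voom (limma 3.58.1), other scalings and filters, the replicate block, all 12 libraries, each library left out and GC and length offsets (smoothing splines with 5 degrees of freedom) were run as alternatives, and the scripts were tested on simulated data. In that check the larger differences were recovered in full but part of the smaller ones was missed, most in the 1 hr LTP design, and recovery was then required of the larger ones alone. A gene not called is not shown to be unchanged. Per-animal ratios used log2(CPM + 0.1). Replicate numbers mark the same animal within a time point, per the labels; the correlation of paired deviations from group means was between -0.16 and 0.22. Replicate libraries differed by more than sampling noise (chi-square per degree of freedom from 9.49 to 85.6). The highest value was for 3 hr LTP replicates 2 and 3, both kept in the tests. Pairs with the set-aside 1 hr control replicate 2 were at 47 and 63.3.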

Additional observations from a re-analysis of the deposited data

Results flagged for a closer look

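Foxc1, a forkhead transcription factor of mural cells and vascular development taken from the list of other pericyte genes, stood out because its response to LTP differed between the time points in a test of the difference itself. Its level was 3.93, 2.96 and 3.67 CPM in 1 hr controls, 3.09, 3.27 and 3.41 CPM in 1 hr LTP libraries, 2.83, 3.48 and 2.53 CPM in 3 hr controls and 5.41, 5.74 and 6.78 CPM in 3 hr LTP libraries. The 3 hr LTP libraries lay above the other 9. The LTP effect was -0.21 on the log2 scale at 1 hr and 1.03 ± 0.15 at 3 hr (adjusted p = 0.00937 in edgeR), and the effect at 3 hr exceeded that at 1 hr by 1.25 ± 0.21 (adjusted p = 0.0726 in edgeR). The interaction call was lost with all 12 libraries (adjusted p = 0.12), with the replicate block (0.189) and with both (0.268), and it held in 4 of 11 fits that left out 1 library, those without 1 hr LTP replicate 3, 3 hr control replicate 2 or 3 hr LTP replicate 2 or 3, with an adjusted p from 0.108 to 0.445 in the others; the call at 3 hr held in all 10 alternatives and all 6 left-out fits run.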

How the results depend on the processing

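For LTP against control at 1 hr, the count of members called moved from 1 to 0 with all 12 libraries and with the replicate block with all 12 libraries, to 2 with DESeq2, with no filter beyond 1 count and with GC and length offsets, and to 4 with those offsets and the replicate block (Myh11, Tagln, Cldn5 and Flt1, all lower). Leaving out each library in turn gave 0 to 1. The replicate block on the fitted libraries left 1 member called at 1 hr, 0 at 3 hr and 0 for the interaction and changed no other member's call; across time points no block could be fitted, since the animals were taken to differ. In controls 14 to 20 members were called between time points when 1 library was left out, the fewest without 1 hr control replicate 1, and 18 to 19 in LTP slices. Of the 20 and 19 calls, 13 in controls and 13 in LTP slices held in all alternatives and left-out fits. With a geometric mean in place of the sum, which gives Rgs5 no extra weight, the log2 difference was -0.23 for the endothelial members between time points in controls (-0.31 as a sum); for the mural members it was -0.38 for LTP at 1 hr (-0.19), -0.057 for LTP at 3 hr (-0.023), -0.56 between time points in controls (-0.47) and -0.24 in LTP slices (-0.30). Mural minus endothelial, it was -0.16 for LTP at 1 hr (0.03 as a sum) and -0.32 between time points in controls (-0.16). The geometric mean gives Cnn1 and Gimap4, which had few counts, the weight of any other member. For Cnn1 the log2 ratios of LTP to control at 3 hr were -0.71, -1.41 and 0.18 in animals 1, 2 and 3. With GC and length offsets, Srf turned to -0.36 in controls and -0.29 in LTP slices and Cspg4 to -0.041 in LTP slices, and Klf2, 3 hr against 1 hr in LTP slices, turned to -0.00736. Leaving out 1 library moved Higd1b from -0.68 to 1.32 in controls, the highest without 1 hr control replicate 3. Depth limits Gimap4, Cnn1 and Gimap8, at 0 to 30 counts a library. The cause was not tested for any of these shifts.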
